A study of Mus musculus with 8 samples.

Results

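The wild type neurospheres of this series are the samples whose titles carry the wild type name, 4 of the 8 arrays, and their gene levels are described here without a comparison of genotypes. Neurospheres are free-floating balls that neural stem and progenitor cells form in serum-free medium. Secondary neurospheres are those that grow after a first generation has been dissociated and seeded again. The cells came from forebrains of FoxO3+/+ mice of the FVB/N strain and grew at 37ºC in NeuroBasal-A medium with B27 supplement lacking vitamin A, 20 ng/ml EGF and 20 ng/ml bFGF. They were seeded at 50000 cells/ml and collected on day 6. The other 4 arrays hold spheres of FoxO3-/- mice of the same strain, grown in the same way. The 4 wild type arrays fall into set 1 and set 2 with 2 arrays each. What a set stands for, how old the mice were, and whether 2 arrays of a set hold separate cultures or animals is not in the labels. P-values below therefore reflect array-to-array spread alone, and that spread may be technical.

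EGF and bFGF bind receptor tyrosine kinases that act through the MAP kinase cascade, keep progenitors dividing, and switch on genes that in turn restrain the same cascade. Cells kept in both factors are known to retain stem cell and radial glia genes such as Sox2, Nes and Fabp7. When the factors are withdrawn, such cells can turn into astrocytes, oligodendrocytes and neurons. An array of whole spheres reads the mixture, so fewer cells of a type and less RNA per cell cannot be told apart.

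Each gene is represented by its brightest probe set that carries 1 gene symbol, and its level is the mean RMA value over the 4 wild type arrays on the log2 scale. Gene means ran from 3.98 to 14.71 over 18193 genes, with a median of 7.41. Probes differ in how strongly they bind, so the levels of 2 genes are set side by side here as values and classes, never tested against each other. As a yardstick for background, 133 genes of olfactory, vomeronasal and taste receptors, keratin-associated proteins and defensins were taken, families that forebrain cells are not known to use as a group. Their median was 4.89. Control probe sets for Trpn, which have no target in mouse RNA, averaged between 4.35 and 4.46 on the 4 arrays. A gene at or below 6.99, the 95th percentile of these families, is called near background, a gene at or above 10.83, the 90th percentile of all genes, is called high, and the rest middling. By this rule 1820 genes (10.0%) were high, 8060 (44.3%) middling and 8313 (45.7%) near background. The limits cut a continuous range: Ryk, Sar1a and Tax1bp1 lay just above the high limit and Cd151, Fam120c and Eprs just below it, while Iqsec2, Rgmb and Zfhx4 lay just above the background limit and Ager, Kcnq5 and Gadd45b just below it. Near background does not mean that a gene is off. Tyms, the thymidylate synthase that dividing cells need, read 6.54 ± 0.09 (SD, n = 4 arrays) in spheres whose other division genes were well above background.

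**Figure D1:**
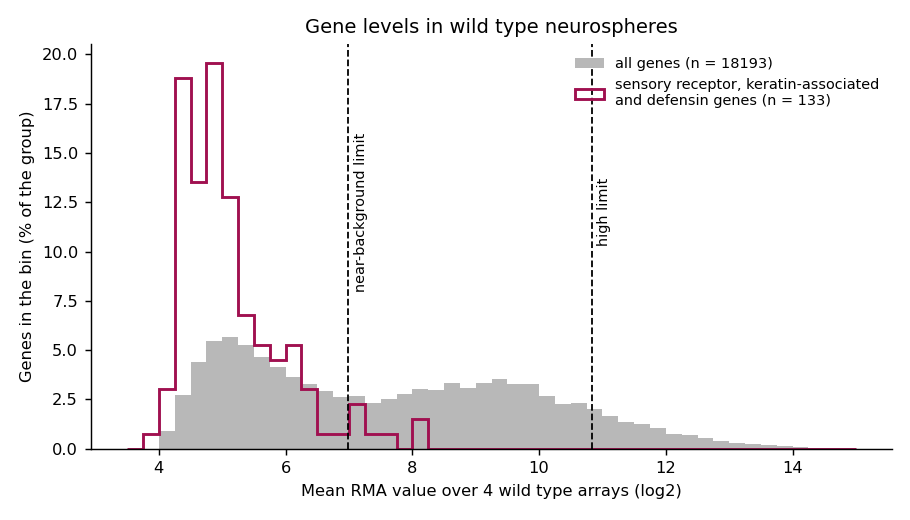
Share of genes (percent of each group, vertical axis) by mean RMA value over the 4 wild type arrays (log2, horizontal axis), for all 18193 genes in grey and the 133 reference genes as an outline, with dashed lines at the class limits. The reference genes gather around 4.89, and all genes spread from 3.98 to 14.71 with a broad second rise above the background limit of 6.99.

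The top of the ranking was held by genes that most growing cells use, and by 2 fatty acid binding proteins. Eef1a1, a translation elongation factor, had the highest mean, 14.71 ± 0.01. Among the first 15 genes were also Tpt1 (14.64), the thymosins Tmsb10 and Tmsb4x (14.56 and 14.52), which bind actin monomers, the actins Actb and Actg1 (14.47 and 14.40), Txn1, a thioredoxin (14.42), and 6 ribosomal protein genes between 14.27 (Rplp2) and 14.54 (Rpl37a). Fabp7, the brain lipid binding protein of radial glia, ranked between them with 14.55 and 14.62 in set 1 and 14.48 and 14.55 in set 2, and Fabp5, the epidermal fatty acid binding protein, with 14.34 and 14.27 in set 1 and 14.32 and 14.25 in set 2. For neither did the difference between the sets pass the test given further below. In families chosen after the levels were seen, 36 of 49 cytosolic ribosomal proteins, 70 of 98 respiratory chain and ATP synthase genes, 38 of 47 splicing and hnRNP genes, 28 of 49 proteasome genes, 28 of 58 translation factors, 17 of 38 chaperonin and heat shock genes and 8 of 24 tubulins and actins were high, against 10.0% of all genes.

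Counts of classes were taken over regulatory, surface and lineage gene lists. Across 6 categories of 78 gene lists, 1941 genes were measured, of which 140 (7.21%) were high, 640 (33.0%) middling and 1161 (59.8%) near background. The share of high genes was 19.5% among lineage markers, 8.13% among matrix and adhesion genes, 7.03% among transporters, 6.25% among transcription factors, 5.61% among receptors with their ligands and targets, and 4.07% among channels. Since levels compare poorly between probe sets, these shares are descriptions of the lists. A gene with several probe sets is taken at its brightest: of 1349 high genes with more than 1 probe set, 228 (16.9%) were high in all of them and 607 (45.0%) had 1 or more near background.

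**Figure D2:**
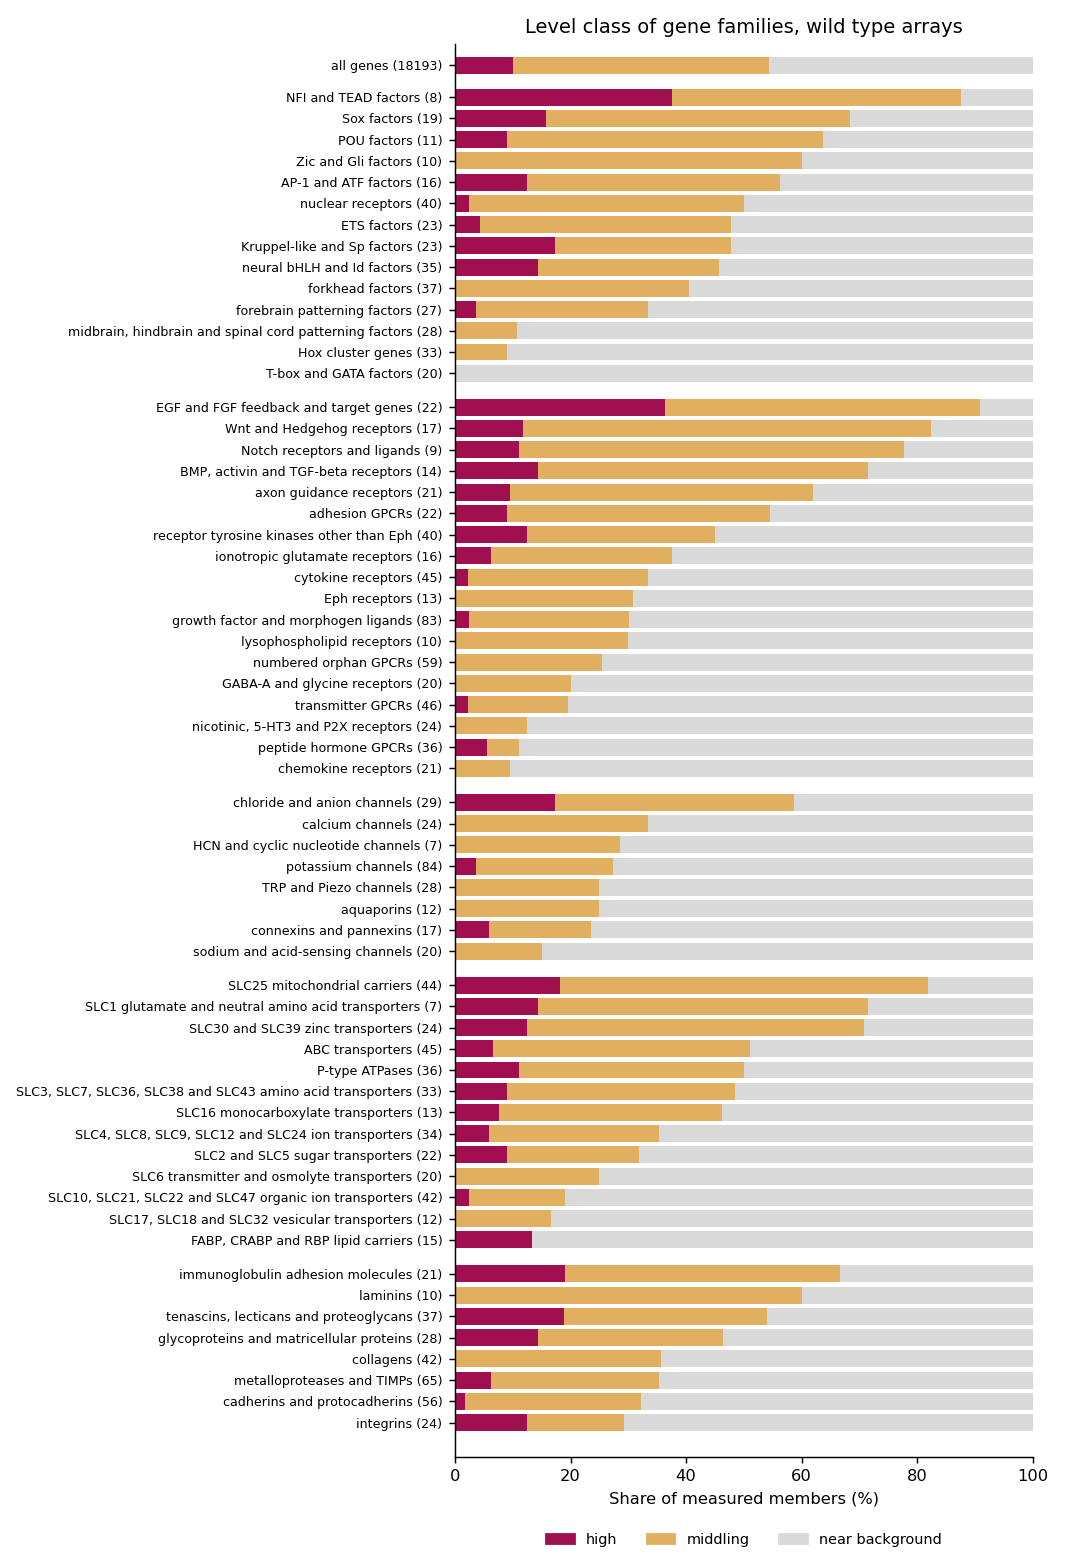
Percent of the measured members of each gene family (horizontal axis, member count in brackets) that were high, middling or near background over the 4 wild type arrays, with all 18193 genes in the top bar. The NFI and TEAD factors and the EGF and FGF feedback genes hold the largest high shares, 37.5% and 36.4%, and all 20 T-box and GATA factors are near background.

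The CG content of promoters differed between the classes, which is given as a description with no test. In RefSeq promoters of assembly GRCm38.p6, the 250 bases before each gene's start were searched for CG, which reads the same on both strands; 14452 of the 18193 genes had an entry. The median number of CG was 18 in high, 17 in middling and 5 in near-background genes, and 13 over all genes. Promoters with at most 5 CG made up 6.84% of high, 9.78% of middling and 51.1% of near-background genes. The letters TATAAA, searched on both strands, stood in 3.79% of high, 3.23% of middling and 9.10% of near-background promoters, and in 5.87% of all. Within the markers taken up below, the median was 15.5 CG in neural stem cell and radial glia genes (n = 20 with a promoter), 19 in proliferation genes (n = 17), 5 in astrocyte genes (n = 16), 4 in myelin genes (n = 10) and 4 in microglia genes (n = 10). Bright genes had promoters of both kinds. In the 4 sequences shown, Sox2 (27 CG) and Fabp7 (4 CG) were both high in both sets, Hes5 (32 CG) was lower in set 2, and Mal (7 CG) was higher in set 2. CG is in capitals, and each runs 5′ to 3′ in the direction of its gene, ending at the base before the start.
Sox2 (chr3:34649745-34649994, + strand): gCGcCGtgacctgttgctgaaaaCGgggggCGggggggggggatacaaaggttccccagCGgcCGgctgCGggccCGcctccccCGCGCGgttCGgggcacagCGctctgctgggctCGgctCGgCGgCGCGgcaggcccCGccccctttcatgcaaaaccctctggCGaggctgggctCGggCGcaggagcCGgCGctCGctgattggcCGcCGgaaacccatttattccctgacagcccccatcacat
Fabp7 (chr10:57784673-57784922, + strand): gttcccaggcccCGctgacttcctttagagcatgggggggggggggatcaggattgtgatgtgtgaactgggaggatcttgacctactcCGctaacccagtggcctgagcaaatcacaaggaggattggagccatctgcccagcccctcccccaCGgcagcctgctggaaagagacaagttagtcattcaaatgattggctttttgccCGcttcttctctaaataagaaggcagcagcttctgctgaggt
Hes5 (chr4:154960673-154960922, + strand): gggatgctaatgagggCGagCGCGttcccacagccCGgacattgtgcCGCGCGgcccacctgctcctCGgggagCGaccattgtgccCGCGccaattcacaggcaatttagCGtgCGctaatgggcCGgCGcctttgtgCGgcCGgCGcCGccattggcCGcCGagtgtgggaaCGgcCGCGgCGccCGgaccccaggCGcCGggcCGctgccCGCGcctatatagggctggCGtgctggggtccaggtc
Mal (chr2:127656696-127656945, - strand): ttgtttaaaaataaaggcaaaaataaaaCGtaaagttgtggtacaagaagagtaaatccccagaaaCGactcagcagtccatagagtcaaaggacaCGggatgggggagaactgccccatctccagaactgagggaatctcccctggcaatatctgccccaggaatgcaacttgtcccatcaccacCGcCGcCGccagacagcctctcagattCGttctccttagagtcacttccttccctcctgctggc
A run of letters is a description of the window and shows nothing about a factor's binding.

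Of 320 transcription factors, 20 were high, 108 middling and 192 near background. Olig1 and Olig2, basic helix-loop-helix factors of the oligodendrocyte lineage that cultured progenitors also use, read 14.11 and 14.13 in set 1 and 14.18 and 14.21 in set 2 for Olig1 and 12.47 and 12.37 in set 1 and 12.71 and 12.60 in set 2 for Olig2. Sox2, the HMG-box factor that maintains neural stem cells, read 13.19 and 13.08 in set 1 and 13.00 and 12.78 in set 2. All these arrays lay far above the high limit, and for each of the 3 genes the difference between the sets did not pass that test. Sox4 and Sox11, factors of the same family linked to neuronal commitment, averaged 13.79 ± 0.05 and 11.31 ± 0.23. The 19 Sox genes were 3 high, 10 middling and 6 near background; Sox21, Sox3, Sox6 and Sox9 were at the upper end of middling (10.02 to 10.71), and the endothelial factors Sox7, Sox17 and Sox18 were near background (5.39 to 6.10). All 19 had the same class in both sets.

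The NFI factors, which promote the switch of radial glia to making astrocytes, formed the other bright group. Nfix averaged 12.33 ± 0.09, Nfia 12.19 ± 0.18 and Nfib 12.01 ± 0.06, while their relative Nfic was middling at 8.93 ± 0.38. Tcf4 and Tcf12, general partners of neural bHLH factors, read 12.43 ± 0.10 and 12.48 ± 0.07. Pou3f3, a POU factor of cortical progenitors, was high (11.72 ± 0.08), and Pou3f1, Pou3f4 and Pou3f2 were middling (10.59, 8.96 and 7.88). Klf9, Klf3, Klf10 and Sp1 were the high members of the Kruppel-like and Sp family (11.10 to 12.07). In the ETS family only Etv5, which FGF signalling induces, was high (11.51 ± 0.50). Among AP-1 and ATF factors Atf4, the factor of the integrated stress response, and Jund were high (11.45 and 10.95), Jun and Fos middling (10.69 and 10.21), and Fosb and Fosl1 near background (4.67 and 5.50).

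Neurod1, Neurod4 and Neurod6, bHLH factors that drive neuronal differentiation, were near background (5.44, 4.34 and 4.07), while their relative Neurod2, named after its value was seen, was just middling (7.10 ± 0.05). The Notch effectors Hes1 and Hes5 were middling (9.57 ± 0.06 and 9.24 ± 0.89), Hes3 and Hey2 near background (5.95 and 4.62). The 35 neural bHLH and Id factors were 5 high, 11 middling and 19 near background; Id3, an inhibitor of bHLH factors, was not among the high ones at 10.79 ± 0.30, and Bhlhe40 was (11.69 ± 0.18).

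Genes that mark position along the body and head axis were mostly dim. Of 33 Hox cluster genes, which pattern the hindbrain and trunk, 0 high, 3 middling and 30 near background, with a list median of 5.45 against 7.41 over all genes. Hoxa5, Hoxa7 and Hoxc9 made up the middling ones (7.85 ± 0.16, 7.61 ± 0.29 and 7.55 ± 0.16). Of 28 midbrain, hindbrain and spinal cord factors, 0 high, 3 middling and 25 near background; Irx3 was the brightest at 8.66 ± 0.69. Only the brightest forebrain factors went further up: of 27, 1 high, 8 middling and 18 near background (66.7%, against 45.7% of all genes). The list medians were nearly alike, 5.63 for forebrain factors and 5.59 for midbrain, hindbrain and spinal cord factors. Nr2f1, the nuclear receptor COUP-TFI that patterns the cortex, was high over the 4 arrays with 10.81 and 10.45 in set 1 and 11.25 and 11.01 in set 2, which made it middling in set 1 and high in set 2. Meis2 (9.59 ± 0.37), Lhx2 (8.62 ± 0.43), Pax6 (8.50 ± 0.16), Six3 (8.17 ± 0.25) and Otx2 (8.11 ± 0.19) were middling, and Tbr1, a factor of young cortical neurons, and Lhx8 were near background (4.36 and 4.66). T-box and GATA factors, most of which act in other germ layers, were near background in 20 of 20 genes and in both sets. No forkhead factor of 37 was high; the brightest was Foxo3 itself, the gene the series is about, with 10.24 and 10.26 in set 1 and 10.32 and 10.00 in set 2. Foxo1 and Foxo4 were also middling (8.30 ± 0.05 and 8.21 ± 0.08). In the nuclear receptor family, Thra, a thyroid hormone receptor, and Nr3c1, the glucocorticoid receptor, were middling (10.29 and 10.22), and Esr1 and Pgr, the oestrogen and progesterone receptors, near background (4.99 and 4.90).

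**Figure D3:**
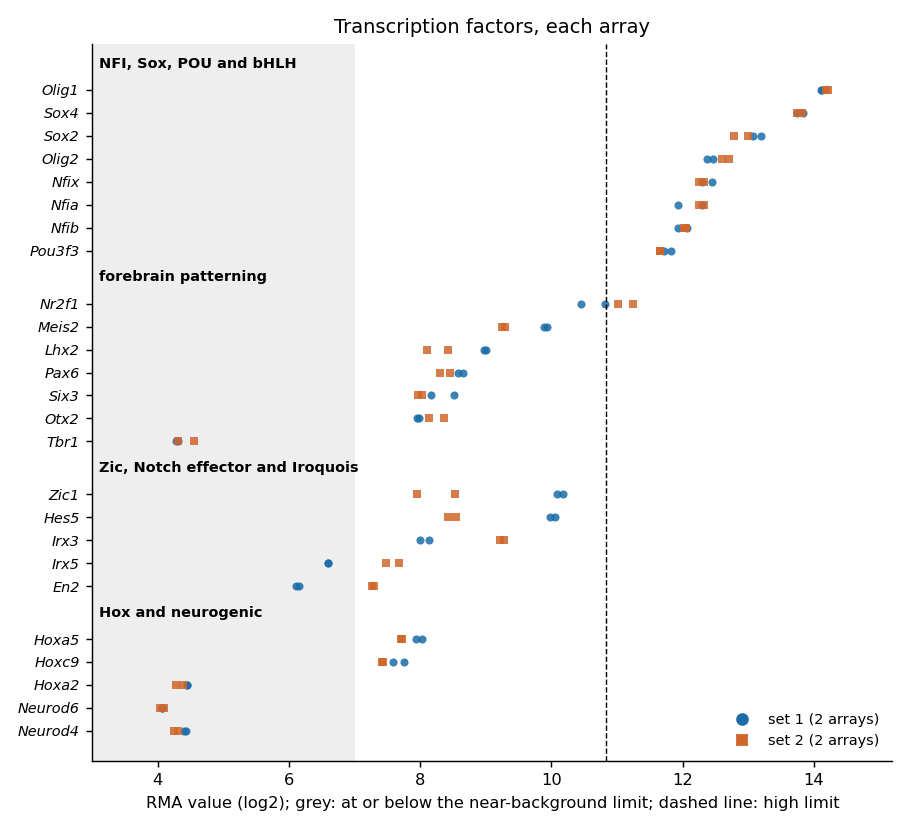
RMA value (log2, horizontal axis) of selected transcription factors on each of the 2 arrays of set 1 (circles) and set 2 (squares), with the near-background range shaded and the high limit dashed. Every array of Olig1, Sox4 and Sox2 lies above the high limit of 10.83, every array of Hoxa2, Neurod4 and Neurod6 below the background limit of 6.99, and Zic1 and Hes5 lie lower and Irx3, Irx5 and En2 higher on both arrays of set 2.

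Egfr and Fgfr3 were the high receptors for the supplied growth factors. Egfr, the EGF receptor, read 12.15 and 12.17 in set 1 and 12.04 and 12.04 in set 2, and Fgfr3, one of the receptors for FGF, 11.65 and 11.48 in set 1 and 11.59 and 11.48 in set 2. The other FGF receptors, named here after their values were seen, were lower: Fgfr1 averaged 10.29 ± 0.18 and Fgfr2 8.91 ± 0.10, both middling, and Fgfr4 was near background at 6.74 ± 0.17. Of 40 receptor tyrosine kinases other than Eph receptors, 5 high, 13 middling and 22 near background. The others that were high were Ddr1, a collagen receptor (12.84 ± 0.07), Ntrk2, the BDNF receptor TrkB (12.35 ± 0.21), and Ryk, a Wnt receptor (10.83 ± 0.17). Erbb4, Tek and Tie1 were near background (4.23, 4.83 and 4.99), and Pdgfra, the receptor that marks oligodendrocyte progenitors, was middling (8.44 ± 0.53). Fgf2, which encodes bFGF, was itself near background in the cells (4.35 ± 0.04).

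Genes that the EGF and FGF pathway switches on were the brightest list among the receptor and signalling lists. Of 22 measured, 8 high, 12 middling and 2 near background, and the list median was 10.36. Dusp6, a phosphatase that switches off ERK, read 11.58 and 11.66 in set 1 and 12.55 and 12.48 in set 2. Ccnd2 and Ccnd1, cyclins that carry cells into S phase, averaged 13.71 ± 0.19 and 13.05 ± 0.41. Egr1, an immediate early factor, averaged 12.97 ± 0.06, and Lrig1, a brake on EGF receptors, 11.61 ± 0.09. Spry3 and Fosl1 were the members near background (5.27 and 5.50).

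Receptors of the other developmental pathways were largely middling. Notch1 was high with 11.08 and 11.26 in set 1 and 11.31 and 11.22 in set 2, and the ligands Dll3, Dll1 and Jag1 (9.66 ± 0.29, 9.54 ± 0.11 and 8.68 ± 0.28) and the receptors Notch3 and Notch2 (9.53 and 8.99) were middling. Fzd3, a Wnt receptor, and Ptch1, the Hedgehog receptor, were high (11.71 ± 0.05 and 11.19 ± 0.28), with Smo, the Hedgehog signal transducer, middling at 10.13 ± 0.09. The 17 Wnt and Hedgehog receptors were 2 high, 12 middling and 3 near background. The BMP receptors Bmpr2 and Bmpr1a were high (11.91 ± 0.14 and 10.95 ± 0.03). In the cytokine receptor family Lifr, the receptor of LIF and CNTF, alone of 45 was high (11.16 ± 0.15), and 30 were near background. Chemokine receptors were near background in 19 of 21 genes, with Ackr3 the brightest (8.77 ± 0.23).

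Ligands were mostly dim. Of 83 growth factor and morphogen genes, 2 high, 23 middling and 58 near background. Ptn, the heparin-binding growth factor pleiotrophin, averaged 13.40 ± 0.13 and Vegfa, the vascular growth factor, 11.89 ± 0.26. Kitl (10.67 ± 0.17), Wnt7b (10.37 ± 0.29) and Wnt5a (9.86 ± 0.21) were the next brightest, all middling. Shh, the Hedgehog ligand, was low in the middling range (7.44 ± 0.50).

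Among neurotransmitter and hormone receptors, a few were bright and most were near background. Ednrb, the endothelin receptor that astrocytes carry, read 12.52 and 12.51 in set 1 and 12.84 and 12.72 in set 2. Grm5, a metabotropic glutamate receptor, averaged 11.77 ± 0.23; the other transmitter receptors coupled to G proteins were middling in 8 cases and near background in 37. Adcyap1r1, the receptor of PACAP, averaged 11.25 ± 0.01, and 32 of 36 peptide hormone receptors were near background. Gria2, the AMPA receptor subunit that limits calcium entry, was high (10.92 ± 0.36), while Grin2a and Grin3b of the NMDA receptors were near background (4.96 and 5.26). The brightest receptor subunits for GABA and glycine were Gabrg1 (10.05 ± 0.02) and Glrb (9.25 ± 0.18), and 16 of 20 were near background. P2rx7, an ATP-gated channel, led the nicotinic, 5-HT3 and P2X receptors (9.28 ± 0.68), of which 21 of 24 were near background. The adhesion receptors Adgrg1 (GPR56) and Adgrl2 (latrophilin 2) were high (11.16 ± 0.22 and 10.99 ± 0.25). Of axon guidance receptors, Plxnb2, a semaphorin receptor, and Neo1, a netrin and RGM receptor, were high (11.29 ± 0.08 and 10.94 ± 0.19), and Robo2 and Unc5d near background (4.51 and 4.47).

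Channels held the smallest share of high genes among the 6 categories, 9 of 221. Gja1, connexin 43 of astrocyte and progenitor gap junctions, read 12.23 and 12.14 in set 1 and 12.20 and 12.18 in set 2, and 13 of the 17 connexins and pannexins were near background. Kcnj10, the inward rectifier Kir4.1 by which glia buffer potassium, read 11.08 and 11.16 in set 1 and 11.19 and 11.09 in set 2. Kcnd3 and Kcnc1, voltage-gated potassium channels known from neurons, were also high (11.35 ± 0.08 and 11.16 ± 0.18). These were the high ones of 84 genes with potassium channel symbols, a count that includes 3 non-coding genes, and 61 of the 84 were near background. Chloride and anion channels held 5 high genes of 29: Clic4 (12.41 ± 0.08), Ttyh3 (11.88 ± 0.27), Ano6 (11.58 ± 0.15), Clic1 (11.43 ± 0.15) and Clcn3 (11.22 ± 0.15). Of voltage-gated and acid-sensing groups, 0 of 20 sodium and acid-sensing channels were high and 17 were near background, and 16 of 24 calcium channel genes were near background; the acid-sensing Asic1 (8.69 ± 0.12) and the calcium channel subunit Cacna2d1 (9.69 ± 0.14) were the brightest of each. Trpm7, a channel joined to a kinase, led the TRP and Piezo channels at 10.32 ± 0.18. Aqp4, the water channel of astrocytes, was middling (9.47 ± 0.20), and Aqp1, that of the choroid plexus, near background (4.90 ± 0.18).

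Of 359 solute carrier genes, 23 were high, 151 middling and 185 near background. The 4 brightest solute carriers were mitochondrial: the ADP/ATP carriers Slc25a5 (14.05 ± 0.06) and Slc25a4 (13.65 ± 0.10), the phosphate carrier Slc25a3 (13.40 ± 0.03) and Slc25a39 (13.30 ± 0.10). The SLC25 family held 8 high and 28 middling genes of 44, and its median was 8.82. Slc1a3, the glutamate transporter GLAST of radial glia and astrocytes, read 12.53 and 12.42 in set 1 and 12.62 and 12.57 in set 2, and Slc1a2, the GLT-1 transporter of mature astrocytes, was middling (10.08 ± 0.40). Amino acid uptake was led by Slc3a2, the shared heavy chain of several exchangers (11.84 ± 0.09), Slc38a2 (11.66 ± 0.12) and Slc38a1 (11.18 ± 0.16). Slc2a1, the glucose transporter GLUT1, averaged 11.35 ± 0.13, and Slc5a3, an inositol transporter, 11.36 ± 0.23, while 15 of 22 sugar transporters were near background. Slc16a1, the lactate transporter MCT1, was high (11.28 ± 0.23), as were the bicarbonate transporter Slc4a4 (11.75 ± 0.24) and the chloride importer Slc12a2 (11.20 ± 0.23). Slc12a5, the chloride exporter KCC2 of mature neurons, was near background (6.71 ± 0.45), as were the vesicular glutamate and GABA transporters Slc17a7, Slc17a6 and Slc32a1 (5.00, 5.22 and 6.64).

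No SLC6 transporter of 20 was high; the glycine transporter Slc6a9 (10.01 ± 0.40), the creatine transporter Slc6a8 (9.72 ± 0.10) and the GABA transporter Slc6a11 (9.56 ± 0.88) were middling. The calcium pump Atp2a2 of the endoplasmic reticulum (12.39 ± 0.11) and the sodium pump subunits Atp1b3, Atp1b2 and Atp1b1 (11.88, 11.74 and 11.17) were the high P-type ATPase genes. Abcd3, a peroxisomal transporter, was the brightest ABC gene (12.04 ± 0.03), and Abcg2, a multidrug exporter used as a stem cell marker, was middling (9.91 ± 0.02). Lipid carriers split without a middle: Fabp7 and Fabp5 stood at 14.55 ± 0.05 and 14.30 ± 0.04, and the 13 others at or below 6.26 (Fabp3).

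Some proteoglycans and tenascin C were high, and 0 of 42 collagens were. Ptprz1, a receptor phosphatase that is also a chondroitin sulfate proteoglycan, averaged 13.41 ± 0.08, Bcan, brevican, 13.26 ± 0.01, and Ncan, neurocan, 12.37 ± 0.22. Tnc, tenascin C of the stem cell niche, read 12.61 and 12.74 in set 1 and 12.52 and 12.38 in set 2. The high members of this list went on with Sdc3, Agrn and Cspg5 (11.14 to 11.71); the 37 genes were 7 high, 13 middling and 17 near background. Lgals1, galectin 1, averaged 13.08 ± 0.18, Sparcl1, hevin, 12.86 ± 0.55, Fbln2, fibulin 2, 12.38 ± 0.33 and Sparc 11.32 ± 0.42. Of the collagen genes 27 were near background, among them Col1a1, Col1a2 and Col3a1 of connective tissue (5.24, 5.91 and 5.28); Col4a1 of basement membranes was the brightest (10.37 ± 0.38). Lamc1 and Lamb1, laminin chains, were middling (10.37 ± 0.09 and 10.23 ± 0.07). The integrin subunits Itgav, Itgb8 and Itgb1 were high (12.53 ± 0.13, 12.23 ± 0.29 and 11.12 ± 0.46), and the leukocyte subunits Itgb2 and Itgam near background (5.01 and 4.59). Of 56 cadherins and protocadherins, Cdh2, N-cadherin of neuroepithelium, was the high one (11.66 ± 0.31), and the epithelial Cdh1 was near background (4.53 ± 0.17). The sheddases Adam9, Adam12 and Adam10 were high (12.28, 11.94 and 11.66), as was Timp4, an inhibitor of metalloproteases (10.93 ± 0.16). Chl1, Jam2, Nrcam and Cntn1 were the high adhesion molecules of the immunoglobulin family (10.97 to 11.85).

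Marker genes were read as a check of the label. Of 23 neural stem cell and radial glia markers, 11 high, 9 middling and 3 near background. Vim, the intermediate filament vimentin, averaged 13.93 ± 0.14, and Nes, nestin, read 10.87 and 10.97 in set 1 and 10.67 and 10.78 in set 2, which straddles the high limit. Prom1, the surface protein CD133, was near background over the 4 arrays (6.48 ± 0.61), as were Fut4 and Thbs4 (5.19 and 5.47). Of the list, 2 markers were near background in both sets, while Prom1 was just middling in set 2. Of 19 proliferation markers, 11 high, 7 middling and 1 near background, with Pcna, the sliding clamp of DNA replication, at 13.50 ± 0.14 and Mki67 at 12.13 ± 0.40.

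Most astrocyte markers were high, although Gfap was near background. Of 18 measured, 11 high, 5 middling and 2 near background, with a median of 11.54 against 10.82 for the stem cell list, which shares Slc1a3 with it. Aldoc, an aldolase, averaged 13.03 ± 0.06, Aldh1l1, a folate enzyme, 12.94 ± 0.06, and Apoe, the lipid carrier, 12.38 ± 0.43. Gfap, the glial filament, read 6.66 and 6.69 in set 1 and 7.21 and 6.63 in set 2, near background, as was Gjb6, connexin 30 (4.49 ± 0.13). In the oligodendrocyte lineage, 4 of 13 progenitor markers were high. The myelin list of 12 held 2 high genes: Cnp averaged 13.08 ± 0.30, and Mbp, myelin basic protein, differed widely between the sets.

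Markers of young neurons were divided. Sox4, Cd24a and Sox11 were high (13.79, 12.60 and 11.31), genes that progenitors also carry. Dcx, doublecortin of migrating neurons, read 5.51 and 5.34 in set 1 and 5.38 and 5.27 in set 2, and Tubb3, the neuronal tubulin, 5.63 and 5.83 in set 1 and 5.43 and 5.56 in set 2, both near background. Of 22 mature neuron markers, 16 were near background, among them Syt1, Nefl and Gad2 (5.69, 5.71 and 5.13). Map2 was the high one at 12.88 ± 0.14, and Gad1, which makes GABA, was middling (9.11 ± 0.39).

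By 4-array means, markers of other cell types of a forebrain preparation were near background throughout in 3 lists and in part in the others. All 15 microglia and macrophage markers were near background (list median 5.18, Csf1r the brightest at 6.90 ± 0.08). So were the 9 choroid plexus markers measured, of 10 listed, and the 4 red blood cell markers measured, of 9 listed. With limits set anew in each set, 14, 8 and 4 members of these 3 lists were near background in both sets. Of 13 endothelial markers none was high, and 3 were middling: Egfl7, Eng and Kdr (7.58, 7.30 and 7.20). The defining endothelial genes Pecam1 and Cdh5 were near background (5.11 and 5.18). Of 12 mural cell markers, Acta2, Tagln and Myl9, contractile proteins, were middling (10.27 ± 0.38, 9.33 ± 0.97 and 8.32 ± 0.37), while Pdgfrb and Rgs5 were near background (5.83 and 5.02). The fibroblast and meningeal list had 10 of 12 near background and Igfbp2, a secreted IGF binding protein that is not confined to those cells, at 13.71 ± 0.27. Of 15 ependymal and cilia genes 10 were near background, with Foxj1 the brightest (8.01 ± 0.36). Pluripotency genes were near background in 9 of 10, and of 7 Schwann and neural crest genes Egr2 and Mitf were middling (9.19 ± 0.21 and 7.41 ± 0.21).

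**Figure D4:**
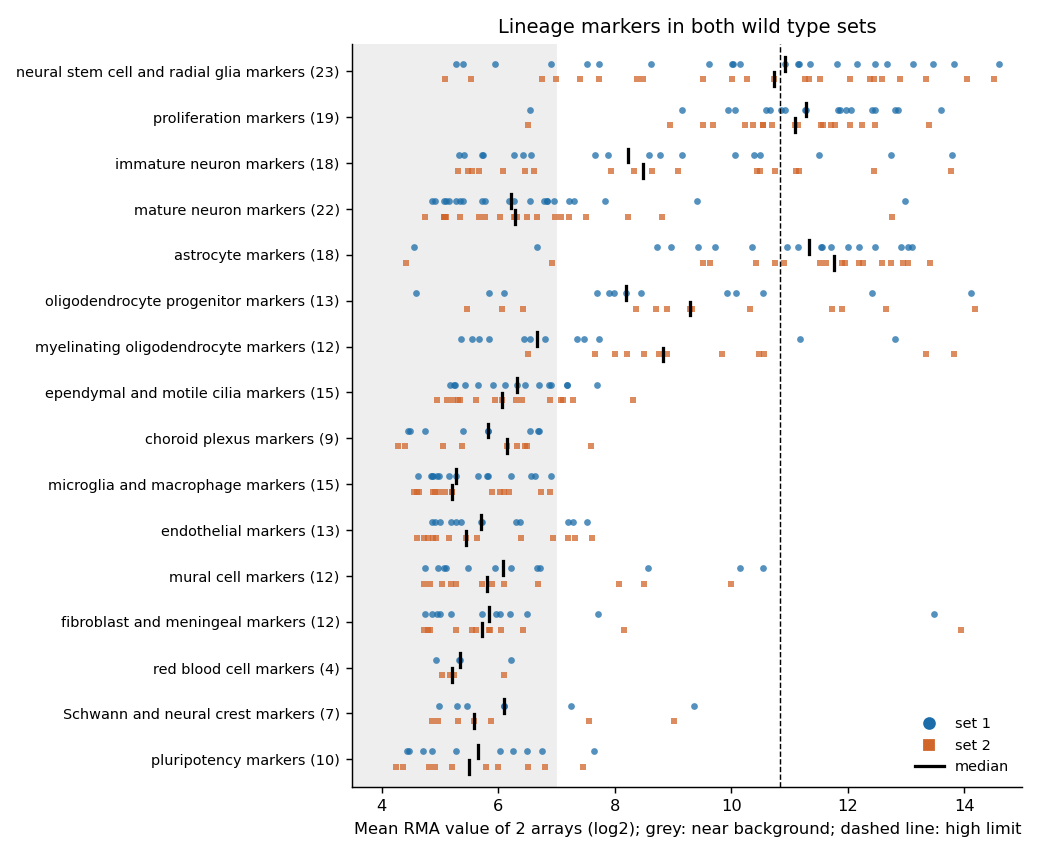
Mean RMA value of the 2 arrays (log2, horizontal axis) of every measured marker in set 1 (circles) and set 2 (squares), by lineage list with its gene count; black bars are list medians, grey is near background and the dashed line is the high limit. Stem cell, proliferation and astrocyte medians lie at 10.73 or above in both sets, and the median of the 12 myelin markers moves from the near-background range in set 1 to 8.83 in set 2.

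The class of a gene mostly agreed in both sets. With limits set anew in each set, 17340 of 18193 genes (95.3%) had the same class in set 1 and set 2. In both sets 1664 genes were high, 7771 middling and 7905 near background. No gene was high in one set and near background in the other; 853 moved to a neighbouring class. Of the high genes named, Nr2f1, Ryk, Sar1a, Cspg5, Bcas1, Itgb1 and Cntn1 were middling in set 1, and Gria2, Adgrl2, Neo1, Timp4 and Tax1bp1 were middling in set 2. In the 6 categories together 1823 of 1941 genes kept their class: 295 of 320 transcription factors, 491 of 517 receptors, ligands and targets, 207 of 221 channels, 438 of 455 transporters, 264 of 283 matrix and adhesion genes and 199 of 221 lineage markers. Taken singly, all 4 arrays gave the same class for 16908 genes. The FoxO3-/- arrays, which had no part in setting these classes, gave 17852 genes the class that the wild type arrays gave, with 341 in another. That count compares 4-array means that each span both sets. It is therefore not on a par with the 17340, which compares 2-array means of different sets.

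Below the level of classes the sets differed. The median absolute difference of a gene was 0.09 between the 2 arrays of set 1, 0.09 between those of set 2 and 0.16 between set means. Over all probe sets, paired arrays within a set correlated at 0.998 or more, and arrays of different sets at 0.988 to 0.990. In limma's test of set 2 against set 1, 5095 of 18193 genes (28.0%) passed at a Benjamini-Hochberg adjusted p under 0.05, of which 2812 (15.5%) were higher and 2283 (12.5%) lower in set 2. The median change of those that passed was 1.36-fold up and 1.31-fold down, and 260 genes changed by at least 1 on the log2 scale, 224 of them upward. Without array 1_1, 1_2 or 2_1 the number passing was 2992, 2887 or 3124, and without moderation of the variance it was 0. Other measures differed between the sets too. The bacterial RNA controls added to the samples were lower by 1.13 and the hybridization controls by 0.47 in set 2. For actin the control probe sets at the 3' end exceeded those at the 5' end, a sign of RNA quality. The excess was 0.53 in set 1 and 0.37 in set 2. For Gapdh the same difference was nearly alike in the sets, -0.07 in set 1 and -0.09 in set 2. Xist, the RNA that silences one X chromosome in female cells, read 10.69 and 11.00 in set 1 and 12.27 and 12.22 in set 2, and the Y-linked Kdm5d fell by 0.98 ± 0.09 (SE) and Uty by 0.55 ± 0.08, which did not pass with the mean of its probe sets. Of the 4 X-inactivation and Y-linked genes measured, 1 was higher, 2 were lower and 1 did not pass. The part of these measures in the differences that follow was not tested.

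Myelin genes had the largest median difference of the lists. Of 12 measured, 11 were higher in set 2 and 0 lower, with a median of 2.65 on the log2 scale, against 15.5% and 12.5% of all genes and a median of -0.0044 over all genes. Mal, a proteolipid of myelin, read 6.35 and 6.53 in set 1 and 10.00 and 9.71 in set 2, and rose by 3.41 ± 0.11 (SE; 10.7-fold, adjusted p = 1.47e-06). The set 1 arrays lay in the near-background range and the set 2 arrays did not. Mag, the myelin-associated glycoprotein, read 7.40 and 7.56 in set 1 and 10.68 and 10.43 in set 2 and rose by 3.08 ± 0.10. Mbp read 11.26 and 11.13 in set 1 and 13.86 and 13.79 in set 2, a rise of 2.63 ± 0.08 between levels that were both high. Ermn (3.15 ± 0.11), Cldn11 (3.05 ± 0.14), Ugt8a (2.73 ± 0.09) and Mog (2.67 ± 0.09), which encode a cytoskeletal protein, a tight junction protein, a lipid enzyme and a surface protein of myelin, rose alike, and Cnp by 0.52 ± 0.08. Opalin was the member that did not pass (6.52, -0.03).

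Earlier genes of the lineage moved less. Of 13 progenitor markers, 10 were higher in set 2 and 0 lower, with a median of 0.83 (0.55 with the mean of all probe sets of a gene). Over all genes, 15.5% were higher and 12.5% lower. Bcas1 rose by 1.82 ± 0.09, Nkx2-2, a lineage factor, by 1.13 ± 0.08, Sox10 by 1.01 ± 0.08 and Pdgfra by 0.91 ± 0.09, while Olig1 and Olig2 did not pass (0.07 and 0.24). Of 18 astrocyte markers, 10 were higher and 0 lower, with a median of 0.36. S100b, a calcium-binding protein of astrocytes and of oligodendrocytes, read 8.72 and 8.73 in set 1 and 10.85 and 10.67 in set 2 and rose by 2.03 ± 0.09, the largest step of that list. Apoe rose by 0.73 ± 0.10 and Mlc1 by 0.77 ± 0.08. Of 22 EGF and FGF feedback genes 13 were higher and 1 lower (8 higher without array 2_1), with Dusp6 up by 0.89 ± 0.08, Etv5 by 0.86 ± 0.08 and Etv4 by 0.80 ± 0.10.

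Proliferation genes went the other way, with a smaller median change than the myelin and oligodendrocyte progenitor lists. Of 19, 13 were lower in set 2 and 0 higher, against 12.5% and 15.5% of all genes, with a median of -0.33. Without array 1_2 it was 7 and without array 2_1 it was 8. Mki67 read 12.44 and 12.50 in set 1 and 11.76 and 11.81 in set 2 and fell by 0.69 ± 0.08. Mcm5, a subunit of the replicative helicase, fell by 0.70 ± 0.09 and Bub1, a spindle checkpoint kinase, by 0.69 ± 0.08. Stem cell and radial glia markers did not move as one: 3 were higher, 3 lower and 17 did not pass, with a median of -0.11; under the alternatives run, 3 to 5 were higher and 2 to 6 lower. In the main fit the stem cell shares of higher and lower members lie near those over all genes. Hes5 read 10.05 and 9.98 in set 1 and 8.42 and 8.54 in set 2 and fell by 1.54 ± 0.08 (2.90-fold, adjusted p = 1.71e-05). Nr2e1, the orphan receptor Tlx of adult stem cells, fell by 0.78 ± 0.09, and Cd9, Prom1 and Msi1 rose by 1.04 ± 0.08, 1.06 ± 0.09 and 0.84 ± 0.13.

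**Figure D5:**
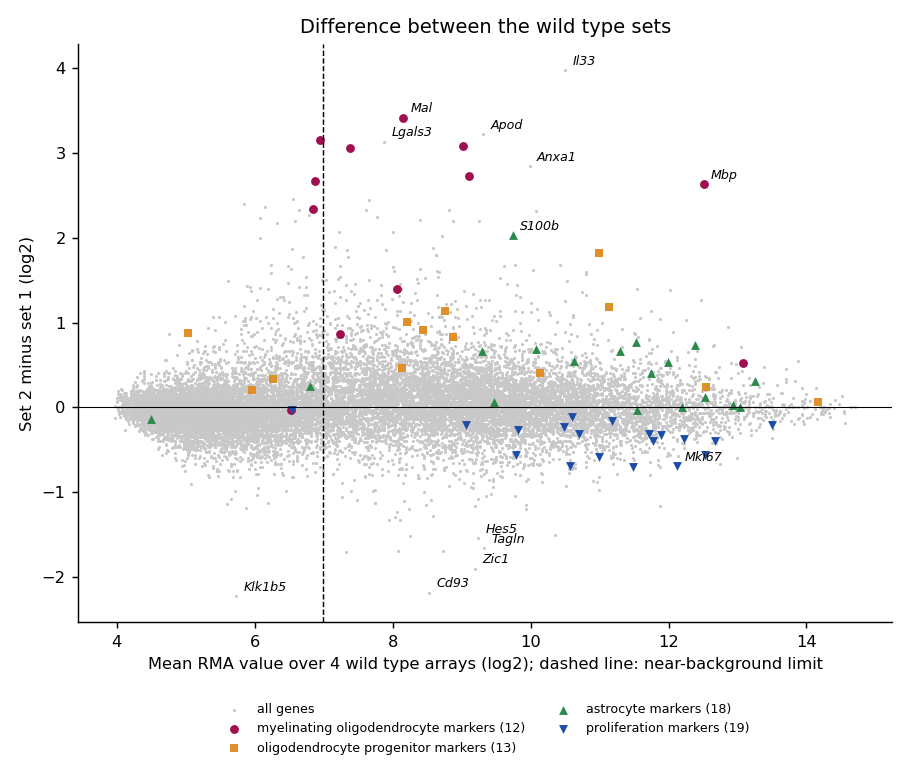
Difference between the sets (set 2 minus set 1, log2, vertical axis) against the mean RMA value over the 4 wild type arrays (log2, horizontal axis), 1 point per gene, with the markers of 4 lineage lists in colour and the near-background limit dashed. Myelin markers reach 3.41 (Mal), all 19 proliferation markers lie below 0, and Il33 has the largest rise, 3.97.

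The genes with the largest single steps came from several families. Il33, an alarmin cytokine stored in the nucleus, read 8.56 and 8.47 in set 1 and 12.48 and 12.48 in set 2 and rose by 3.97 ± 0.08 (15.7-fold, adjusted p = 1.84e-07), from middling to high. Apod, a lipid carrier, rose by 3.22 ± 0.09, and Anxa1, annexin A1, by 2.84 ± 0.08. Lgals3, galectin 3, read 6.32 and 6.31 in set 1 and 9.51 and 9.37 in set 2 and rose by 3.13 ± 0.08. The largest falls were those of Klk1b5, a kallikrein that fell by 2.22 ± 0.10 within the near-background range, and Cd93, a transmembrane receptor, which fell by 2.18 ± 0.10. Zic1, a zinc finger factor of the dorsal neural tube, read 10.18 and 10.09 in set 1 and 8.53 and 7.95 in set 2 and fell by 1.90 ± 0.16, with Zic5 and Gli2, the latter a Hedgehog effector, lower by 1.06 ± 0.17 and 0.83 ± 0.13. Eya1, a transcriptional coactivator, fell by 1.69 ± 0.09, and Tagln, a contractile protein of the mural list, by 1.66 ± 0.13. Orly, Adarb1, an RNA editing enzyme, Gjc1, connexin 45, and Mtm1, a lipid phosphatase, complete the 10 largest falls, with changes between -1.70 and -1.50.

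Single members of the surface families also moved far. Gabrb1, a GABA receptor subunit, read 5.92 and 6.45 in set 1 and 8.49 and 8.02 in set 2 and rose by 2.07 ± 0.19. Kcna1, a potassium channel of axons beneath myelin, rose by 2.32 ± 0.10, and Gjb1, connexin 32 of oligodendrocytes, by 1.85 ± 0.08. Gpr37, a receptor of oligodendrocytes, rose by 1.89 ± 0.11. The sphingosine phosphate receptors S1pr3 and S1pr5 rose by 2.40 ± 0.09 and 2.00 ± 0.08, and S1pr1 did not pass (-0.04). All these but S1pr1 were near background in set 1 and middling in set 2. Gria1, an AMPA receptor subunit, rose by 1.46 ± 0.11, and Gria2 fell by 0.62 ± 0.08. Slc6a11 rose by 1.52 ± 0.08 and Atp1b2, the sodium pump subunit of glia, by 1.13 ± 0.10. In the matrix, 12 of 28 glycoprotein genes were higher and 0 lower (7 higher without array 1_2), with Sparcl1 up by 0.95 ± 0.08 and Sparc by 0.71 ± 0.09. Over all genes, 15.5% were higher and 12.5% lower in set 2. Among positional factors Irx3, Irx5 and En2 rose by 1.18 ± 0.09, 0.99 ± 0.09 and 1.14 ± 0.08, while Meis2 and Lhx2 fell by 0.64 ± 0.08 and 0.72 ± 0.11. Their lists did not move as a whole. Of 28 midbrain, hindbrain and spinal cord factors 4 were higher and 3 lower, with a median of -0.10. Of 27 forebrain factors 3 were higher and 6 lower, with a median of -0.06.

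The FoxO3-/- arrays carry the same set numbers and were not used in this test. In them 4310 genes passed between the sets, and 2910 passed in both genotypes in the same direction, 57.1% of the wild type and 67.5% of the FoxO3-/- genes, with 13 in opposite directions. Of the wild type genes that passed, 96.6% had the same sign in the FoxO3-/- arrays, against 80.1% of all genes. The myelin list had 11 of 12 genes higher there too, with a median of 1.99, against 4310 of all 18193 genes passing in either direction. Mal, Mag and Il33 changed by 2.47, 2.20 and 2.90. The progenitor median was 0.50, the astrocyte median 0.21 and the proliferation median -0.23. Of these lists 8 of 13 progenitor and 8 of 18 astrocyte markers passed as higher, against 10 and 10 in the wild type arrays. Of 19 proliferation markers 7 passed as lower, against 13 in the wild type arrays. Not every large step recurred: Zic1 changed by -0.27 and Tagln by 0.28 in the FoxO3-/- arrays, neither of which passed. Whether these differ from the wild type steps was not tested.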

How the data were processed

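Total RNA of the 4 wild type samples was labelled with biotin and read on Mouse430_2 arrays from Affymetrix. The authors deposited log2 values for every array in 1 table. Per the submitters' processing notes these come from RMA, which corrects background, quantile-normalizes arrays and summarises the probes of each set. The version, and whether all 8 arrays were processed together, are not given in the sources used here. A shift common to every gene would not be seen after quantile normalization. The number of arrays limits the precision.

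Of 45101 probe sets, 64 controls were left out; 34945 had 1 symbol in the platform annotation, 932 several and 9160 none. A look-up of Entrez IDs in the GRCm38.p6 gene table changed 0 symbols. No gene was read from a probe set with several symbols. Each of 18193 genes is its brightest probe set with 1 symbol over the wild type arrays. List genes without such a probe set were not analysed here. Array medians lay between 6.28 and 6.29, and 0 columns were identical. Classes follow the limits given above, recomputed for each set.

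The test of set 2 against set 1 used lmFit and eBayes of limma 3.58.1 (R 4.3.3), two-sided, on the 4 wild type arrays, with Benjamini-Hochberg adjustment over all genes; the fit was tested on simulated data. No genotype was tested. Alternatives covered normalization, filters, the variance model, thresholds, the choice of probe set, the replicate block and leaving out each array. Genes were named by rule: the 15 brightest, in each list up to 6 of the brightest, 3 of the dimmest and 4 of the smallest p among those passing, every lineage marker, lists of at most 12 whole, the 10 largest rises and falls, the 3 on either side of each limit, and FoxO genes. The arrays, lists and rules were chosen with earlier results of these data known.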

Additional observations from a re-analysis of the deposited data

Results flagged for a closer look

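In 4 of 85 values looked at, 1 array stood apart from the other 3 by Dixon's test (a gap to the nearest other array above the 95% critical share of the whole range). For arrays that are all alike, chance gives about 1 in 20. These arrays fall into sets that differed, and some lists share genes, so that rate need not hold here. The median level of T-box and GATA factors was 5.27, 5.28, 5.09 and 5.25 on arrays 1_1, 1_2, 2_1 and 2_2, with array 2_1 apart (ratio 0.849). The median of SLC2 and SLC5 sugar transporters was 6.68, 6.56, 6.56 and 6.55, with array 1_1 apart (ratio 0.937). Microglia and macrophage markers had medians of 5.21, 5.32, 5.20 and 5.20, with array 1_2 apart (ratio 0.887), and red blood cell markers had 5.24, 5.44, 5.21 and 5.23, again with array 1_2 apart (ratio 0.831). All these medians lie in the near-background range.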

How the results depend on the processing

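The number of genes that differed between the sets was 5095 of 18193 with limma. With a filter on dim genes it was 4237 of the 9880 genes then tested. The number was 4757 to 5959 with all 8 arrays, quantile normalization, median centring, a variance trend or another choice of probe set. It was 2887 to 3858 when 1 array was left out, where the lone array is assumed to vary like the others, 2454 at an adjusted p under 0.01, 260 with a change of at least 1, 10379 of 45037 when probe sets were counted, and 0 without moderation of the variance (4511 at an unadjusted p under 0.05, against 7382 in limma). Quantile normalization shared 4604 genes with the 5095 and gave 2530 higher and 2694 lower. Same-numbered arrays of the sets deviated together by a correlation of 0.05. This value cannot tell whether such arrays share more than a number, and the labels do not say. With the replicate number as a block, 5641 genes passed and 291 of 291 named genes kept their call. Without 1 array, 24 to 54 of those 291 missed the threshold. With the mean of all probe sets of a gene, 37 missed it and Slc1a4, Slc2a12 and Slc38a10 turned sign, to 0.14, -0.05 and -0.01, none passing. Of 160 counts of high and near-background list members, 137 stayed within 1.5 times with that choice, 126 with the high limit at the 80th percentile, 152 with the background limit at the 99th percentile, and 158 to 160 without 1 array.

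The near-background count (8313) was 4549 with the 25th percentile of all genes as the limit and 6595 to 9906 otherwise. The same-class count (17340) stayed between 17024 and 17474 under every alternative run for it. Arrays are limited at the dim end: 1654 of the 5095 genes were near background. Over all 18193 genes, 8313 (45.7%) were in that class.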
